A study of Mus musculus with 18 samples.

Results

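The 10 genes described here make, load and regulate microRNAs. They are Drosha and Dgcr8, which cut primary transcripts in the nucleus, Xpo5, the exporter, Dicer1, which cuts precursors in the cytoplasm, the Argonautes Ago1 and Ago2, the let-7 repressors Lin28a and Lin28b, the uridylyltransferase Zcchc11 (also called Tut4) and the exonuclease Dis3l2. They were chosen by name, each read from the RefSeq transcript entry of its symbol or an older synonym, and all 10 were found among 14797 genes of the mRNA sequencing table and among 13917 genes of the RNAome sequencing table. The cells were mouse embryonic stem (ES) cells, HPRT deficient and C57BL/6 by strain, at passage 19 to 22, which had spent 2 passages on feeder cells and 1 on gelatin. The cisplatin group received 2.5 µM of cisplatin, whose platinum forms crosslinks in DNA, and the control group an equal volume of the vehicle DMSO, for a time that the sources used here do not give. RNA of 6 samples was read as poly(A) RNA (mRNA sequencing), as small RNA, and by RNAome sequencing, in which rRNA-depleted, fragmented total RNA gives long and small RNA from the same library. Each assay had 3 cisplatin libraries (samples 8.3.3, 8.4.3 and 8.5.3) and 3 control libraries (8.4.16, 8.5.16 and 8.6.16).

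A microRNA is cut from a long transcript by the microprocessor of Drosha and Dgcr8, carried out of the nucleus as a hairpin by exportin 5, cut again by Dicer and bound by an Argonaute protein, which pairs its seed with target mRNAs. In ES cells Lin28 proteins bind the loop of let-7 hairpins and recruit Zcchc11 or its paralog Tut7, whose uridine tails mark the hairpin for decay by Dis3l2, so mature let-7 is scarce there. Lin28a and Lin28b mRNAs are in turn known let-7 targets, and Dgcr8 mRNA carries hairpins that the microprocessor itself cuts.

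Sequences of the let-7 circuit are shown first, because the deposited microRNA names do not always match them. RefSeq mature sequences (build GRCm38.p6) are given 5′ to 3′ with the seed, bases 2 to 8, in capitals. All 9 family members matched in RefSeq share the seed GAGGUAG and differ only outside it.
let-7a-5p: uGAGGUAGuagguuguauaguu
let-7c-5p: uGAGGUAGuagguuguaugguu
let-7f-5p: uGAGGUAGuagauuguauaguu
let-7g-5p: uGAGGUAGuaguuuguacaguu
let-7i-5p: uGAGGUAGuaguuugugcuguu
miR-98-5p: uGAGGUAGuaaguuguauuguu
In the deposited small RNA tables the let-7c-5p sequence stands under the name let-7a-5p, the let-7a-5p sequence under let-7e-5p, the let-7g-5p sequence under miR-3962 and the let-7b-5p sequence under let-7k. Family values below therefore follow the sequence, with each entry assigned by its first 20 bases, unless the deposited name is stated.

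GGAG, the short motif that Lin28 is known to contact in precursor loops, lay between the arms of 9 of the 12 let-7 and miR-98 hairpins of the RefSeq table, searched on the transcript strand. Of 644 mouse hairpins with both arms listed, 58 (9.0%) held it in the same place. It was not found in that place in let-7c-2, let-7b and miR-98. The hairpins below show a pair that encodes the same mature let-7c with and without the motif, and 2 further family members, with GGAG between the arms in capitals.
Mirlet7c-1: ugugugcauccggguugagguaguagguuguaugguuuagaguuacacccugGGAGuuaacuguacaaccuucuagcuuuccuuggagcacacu
Mirlet7c-2: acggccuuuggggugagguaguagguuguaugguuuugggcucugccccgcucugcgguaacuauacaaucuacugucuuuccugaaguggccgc
Mirlet7i: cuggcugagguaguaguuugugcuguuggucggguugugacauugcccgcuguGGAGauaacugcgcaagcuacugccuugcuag
Mir98: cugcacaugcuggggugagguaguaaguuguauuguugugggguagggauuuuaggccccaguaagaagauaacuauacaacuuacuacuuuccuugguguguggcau

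A match to the let-7 seed, CTACCTC on the sense strand, was found in the annotated 3′ UTR (GENCODE vM1 on NCBIM37, the assembly also called mm9) of 3 of the 10 genes. Lin28b held 4 matches, Lin28a 2 and Ago2 1, and the other 7 genes held 0. Over all genes with a 3′ UTR, 1640 of 20007 (8.2%) had a match. Among genes with 3′ UTRs of like length the share was 25.1% for Lin28b, 15.5% for Lin28a and 27.8% for Ago2. For the other 7 genes it ran from 0.0% (Xpo5, with 28 annotated bases) and 0.9% (Drosha, 168 bases) to 24.8% (Ago1). A count of 0 therefore says little for those with short 3′ UTRs. The sites are shown as 23 bases with the match in capitals.
Lin28a, chr4:133561104-133561126, minus strand: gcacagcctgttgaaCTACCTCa
Lin28a, chr4:133560466-133560488, minus strand: gagatcgccacaaacCTACCTCa
Lin28b, chr10:45100828-45100850, minus strand: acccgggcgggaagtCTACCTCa
Lin28b, chr10:45098454-45098476, minus strand: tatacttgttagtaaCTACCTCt
Lin28b, chr10:45098282-45098304, minus strand: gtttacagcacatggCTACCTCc
Lin28b, chr10:45096866-45096888, minus strand: aaatgatggcaccgaCTACCTCt
Ago2, chr15:72932154-72932176, minus strand: acagatgcataaaagCTACCTCt
A match describes these letters only, and no readout here measured binding to it.

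Counts in tested genes ranged from 9502794 to 14821682 per library in mRNA sequencing and from 4990985 to 19331955 in RNAome sequencing. The 10 most abundant genes took 4.73% to 5.07% of gene counts in mRNA sequencing and 73% to 83.6% in RNAome sequencing, most of which were small nucleolar RNAs in the latter. The 10 genes were read more thinly in RNAome sequencing, with 5 to 613 counts per gene and library against 209 to 11630 in mRNA sequencing. Control 8.4.16 stood apart on the first principal component of RNAome sequencing (31.18, against 2.63 and 5.41 in the other control libraries and -14.57 to -11.65 in the cisplatin libraries). The ES cell marker Pou5f1 was at 1198 ± 13.6 CPM (counts per 1000000 of the TMM-scaled library total; SD, n = 3) in control and 1197 ± 35.4 in cisplatin mRNA libraries. Of 8 feeder fibroblast markers, Lum and Dcn did not pass the filter on low counts. The other 6 together reached 38.7 to 58.5 CPM in control and 34.7 to 68.6 CPM in cisplatin libraries, and 0 of them were called different. Of the 8 markers of differentiated cells, Sox17, T, Cdx2 and Foxa2 did not pass that filter in either assay. Of the 4 tested in mRNA sequencing, Pax6 was called lower, from 17.3 ± 2.48 to 11.6 ± 1.43 CPM (log2 -0.59, SE 0.13, edgeR adjusted p = 0.00288), and Nes, Gata4 and Gata6 were not called.

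Per length of transcript, Lin28a stood far above the other genes in ES cells. In control mRNA libraries Lin28a was at 226 ± 5.12 CPM per kb (SD, n = 3), and Drosha (60 to 62.5) and Xpo5 (46.9 to 49.8) followed. Ago2, Dgcr8, Dicer1 and Ago1 formed a close group between 17.9 and 22.4 CPM per kb. The ranges of Ago2 and Dgcr8 overlapped, as did those of Dgcr8 and Dicer1, so their order is not resolved. Dicer1 lay above Ago1, and Ago1 above Zcchc11 (15.5 ± 0.972), without overlap. An error in the transcript length used would shift all libraries of a gene alike, so separate ranges do not settle such close orders. Lin28b (9.22 ± 0.728) and Dis3l2 (8.22 ± 1.4) were the lowest and overlapped. The lowest Lin28a library, at 151 CPM per kb after cisplatin, was still above the highest Lin28b library, at 10. In RNAome sequencing Lin28a was again first in control libraries (8.64 ± 0.849 CPM per kb) and Ago1 was last of the 9 tested genes (0.517 ± 0.211). CPM values of the 2 assays are not comparable with each other, because a few abundant RNAs take most RNAome counts.

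**Figure D1:**
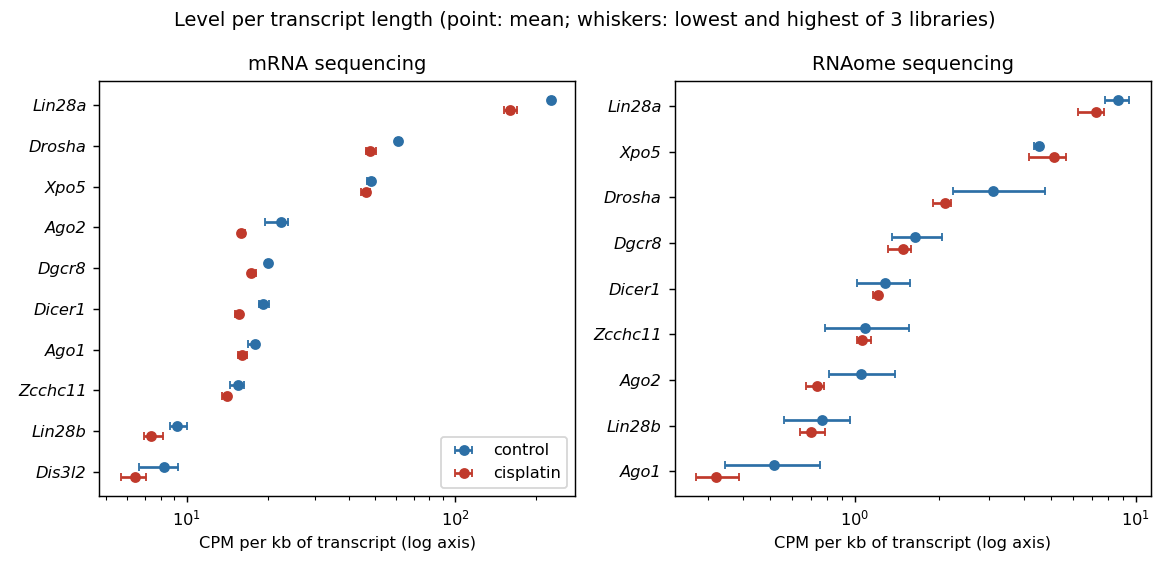
Level of each gene in CPM per kb of its longest coding transcript (log axis) in mRNA sequencing (left) and RNAome sequencing (right), for control (blue) and cisplatin (red) libraries. Points are means and whiskers the lowest and highest of 3 libraries. Lin28a is highest in both panels, and the control ranges are wider in RNAome sequencing.

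Cisplatin lowered the mRNA of 7 of the 10 genes. Lin28a, Ago2, Drosha, Dis3l2, Lin28b, Dicer1 and Dgcr8 were called lower, 0 were called higher, and Ago1, Zcchc11 and Xpo5 did not pass the test (edgeR quasi-likelihood test, two-sided, Benjamini-Hochberg adjusted p under 0.05 over all 14083 genes tested). In percent, Dgcr8 fell by 13.2%, the smallest change among the 7, and Lin28a fell by 29.7%, the largest. Over all tested genes 19.2% were called lower and 18% higher. The median log2 fold change of the 10 genes was -0.32, beside 0.01 over all tested genes. In 8 of the 10 genes every cisplatin library lay below every control library, against 23.9% of all tested genes.

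The mRNAs of both microprocessor subunits were called lower. Drosha (chromosome 15, 12754570 to 12865045, plus strand, NCBIM37), the RNase III of the microprocessor, was at 231.7, 211.9 and 213.1 CPM in cisplatin libraries 8.3.3, 8.4.3 and 8.5.3, and at 274.3, 285.8 and 279.7 CPM in controls 8.4.16, 8.5.16 and 8.6.16. The groups did not overlap, and Drosha fell by 0.36 on the log2 scale (SE 0.05, adjusted p = 7.18e-05, edgeR). Dgcr8 (chromosome 16, 18254041 to 18289342, minus strand), its RNA-binding partner, was at 81.7, 77.6 and 77 CPM with cisplatin and at 92.2, 90.9 and 89.1 CPM without. It fell by 0.20 (SE 0.06, edgeR adjusted p = 0.0121), with no overlap, and the call was lost without cisplatin 8.4.3 (adjusted p = 0.0587) and without cisplatin 8.5.3 (0.058). Dgcr8 overlaps exons of Trmt2a on the opposite strand by 825 bases, and since the sources used here give no counting rule, some of its counts are uncertain.

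Among these genes, the mRNA of the exporter differed least between the groups. Xpo5 (chromosome 17, 46339804 to 46379248, plus strand), which carries precursor hairpins to the cytoplasm, was at 165.8, 178.3 and 173.7 CPM with cisplatin and at 184.9, 179.7 and 173.9 CPM in controls. The groups overlapped, and the log2 difference of -0.06 (SE 0.05) did not pass (edgeR adjusted p = 0.419).

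Dicer1 (chromosome 12, 105925952 to 105990162, minus strand), which cuts the hairpin to its mature length, was at 148.8, 156.7 and 154.3 CPM with cisplatin against 198.9, 184.8 and 183.6 CPM in controls. It fell by 0.30 (SE 0.05, edgeR adjusted p = 0.00037), and all cisplatin libraries lay below all controls.

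Of the Argonautes, Ago2 was called lower and Ago1 was not. Ago2 (annotated as Eif2c2, chromosome 15, 72932055 to 73015377, minus strand), the Argonaute that can slice its target, was at 125.3, 132.3 and 125.3 CPM with cisplatin and at 191.9, 189.8 and 157.8 CPM without. It fell by 0.49 (SE 0.07, edgeR adjusted p = 7.39e-05), the cisplatin libraries lying close together and control 8.6.16 below the other controls. Ago1 (annotated as Eif2c1, chromosome 4, 126112256 to 126145878, minus strand) was at 117.4, 113.0 and 122.2 CPM against 133.1, 134.3 and 123.0 CPM. Its log2 difference of -0.15 (SE 0.06) just missed the threshold (edgeR adjusted p = 0.0545), and without control 8.6.16 it passed (-0.19, adjusted p = 0.0133). The difference between the effects on Ago1 and Ago2 was not tested.

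Both Lin28 paralogs fell, Lin28a from a level far above that of Lin28b. Lin28a (chromosome 4, 133559245 to 133574756, minus strand) was at 592.7, 528.1 and 546.6 CPM with cisplatin and at 782.4, 810.8 and 777.8 CPM in controls. It fell by 0.51 (SE 0.05, edgeR adjusted p = 2.33e-06), to 0.70 of its control level, and the groups lay far apart. A noncoding gene on the opposite strand overlaps its exons by 103 bases. Lin28b (chromosome 10, 45096426 to 45206201, minus strand) was at 44.1, 37.4 and 37.6 CPM against 48.2, 54.2 and 46.8 CPM. It fell by 0.33 (SE 0.08, edgeR adjusted p = 0.00683), with cisplatin 8.3.3 nearest the controls.

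The enzymes that act after Lin28 were near the threshold. Zcchc11 (chromosome 4, 108132031 to 108232026, plus strand), which adds uridines to precursor let-7, was at 81.7, 86.5 and 86.9 CPM with cisplatin and at 99, 95.7 and 87.6 CPM without. The groups were separate by a narrow margin, and the log2 difference of -0.14 (SE 0.06) did not pass (edgeR adjusted p = 0.0866), but did without control 8.6.16 (-0.20, adjusted p = 0.0183). Dis3l2 (chromosome 1, 88600379 to 88946672, plus strand), the exonuclease that degrades uridylated precursors, was at 18, 22.4 and 20.4 CPM against 29.5, 27.7 and 21.1 CPM. It fell by 0.36 (SE 0.12, edgeR adjusted p = 0.0345), although control 8.6.16 lay within the cisplatin range. That call was lost in 4 of the 6 fits that left out a library, those without cisplatin 8.3.3 (adjusted p = 0.103), cisplatin 8.5.3 (0.079), control 8.4.16 (0.14) and control 8.5.16 (0.125).

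**Figure D2:**
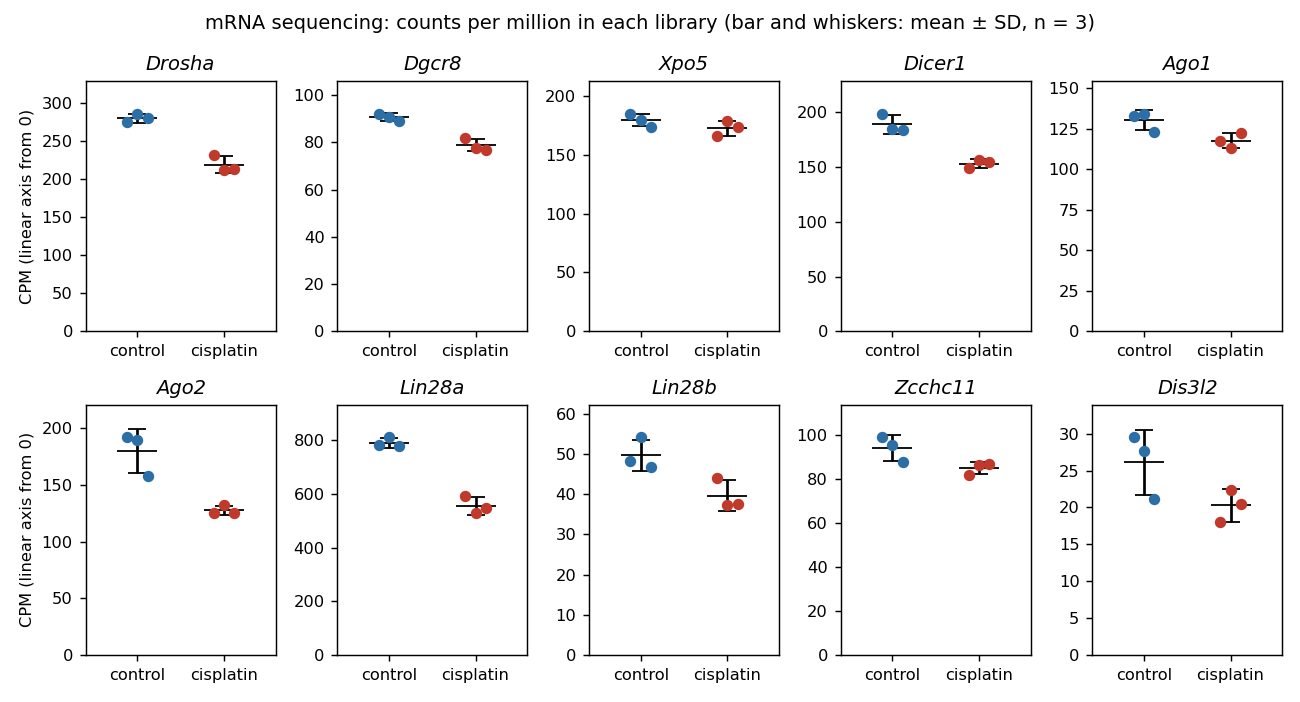
CPM of each gene in mRNA sequencing (linear axes from 0), with control libraries in blue, cisplatin libraries in red, and the mean ± SD of 3 libraries in black. Lin28a lies between 777.8 and 810.8 CPM in controls and between 528.1 and 592.7 CPM with cisplatin, while the groups overlap for Xpo5 and Dis3l2.

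Several markers of the ES cell state were lower in mRNA sequencing as well. Of 8 ES cell markers 6 were called lower there, beside 19.2% of all tested genes, and 0 were called in RNAome sequencing. Among the 6 were Zfp42 (log2 -0.70, SE 0.07, edgeR adjusted p = 2.43e-06), Esrrb (-0.61, SE 0.05), Klf4 (-0.49, SE 0.06) and Sox2 (-0.31, SE 0.04). In mRNA sequencing Pou5f1 (-0.00, SE 0.04) and Dppa5a (0.03, SE 0.05) did not pass. The summed level of the 8 markers there was 4303 to 4534 CPM with cisplatin and 4995 to 5255 CPM in controls. Their part in the lower Lin28a and Lin28b values was not tested. In bulk RNA, fewer cells that express a gene and less RNA per cell cannot be told apart.

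The wider pathway was read from lists of 79 other genes in 6 groups. Their counts stand beside 19.2% of all tested genes called lower and 18% called higher. Among 13 microprocessor cofactors, 8 were lower and 1 higher in mRNA sequencing. The 4 with the smallest adjusted p were Srsf3, a splicing factor that helps recognise primary microRNAs (log2 -0.40, SE 0.05), Yap1, the Hippo effector (-0.33, SE 0.05), the helicase Ddx17 (-0.27, SE 0.05) and the RNA-binding protein Tardbp (-0.24, SE 0.05), and their adjusted p ran from 2.14e-05 to 0.00114. The member called higher was Srrt, which links the cap-binding complex to the microprocessor (0.15, SE 0.05, adjusted p = 0.0408). Median log2 values for the groups are set beside 0.01 over all tested genes, and that of the cofactors was -0.22.

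Of 6 export and Dicer partners, 3 were lower and 1 higher (median -0.11). Xpo1, the general export receptor, was lower (log2 -0.37, SE 0.05), as were Rcc1 (-0.22, SE 0.05) and Ran (-0.13, SE 0.04), which set the gradient that drives export. Prkra, a double-stranded RNA-binding partner of Dicer, was higher, from 10.9 ± 0.732 to 14.3 ± 1.28 CPM (0.40, SE 0.12, adjusted p = 0.0151). The other Dicer partner, Tarbp2, was at 74.3 ± 4.22 CPM in controls and 76.1 ± 5.72 CPM with cisplatin and did not pass (adjusted p = 0.71).

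Among 14 RISC and effector genes 10 were lower and 0 higher (median -0.20). Among those lower were Snd1, a nuclease found with RISC (log2 -0.63, SE 0.06), Pum2, which binds 3′ UTRs and can assist microRNAs (-0.36, SE 0.06), and Fmr1, an RNA-binding protein (-0.30, SE 0.05). The other Argonautes, Ago3 (-0.19, SE 0.13) and Ago4 (0.62, SE 0.44), did not pass, and Ago4 was near the limit of detection at 0.711 ± 0.531 CPM in controls.

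Of 16 genes of deadenylation and decapping 6 were lower and 1 higher (median -0.11). Cnot1, the scaffold of the CCR4-NOT complex, was lower (log2 -0.44, SE 0.04, adjusted p = 3.28e-06), as were its partners Cnot2 (-0.39, SE 0.06) and Cnot3 (-0.36, SE 0.06). Edc4, a decapping scaffold, was higher (0.30, SE 0.05, adjusted p = 0.000525).

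In tailing and turnover 4 of 12 genes were lower and 3 higher (median -0.05). Tut7, the paralog that can stand in for Zcchc11, was higher, at 52 ± 2.68 CPM with cisplatin and 43.8 ± 2.97 CPM without (log2 0.25, SE 0.07, adjusted p = 0.0136), and it was singled out after its values were seen. Whether Tut7 differed from Zcchc11 in its response was not tested. The 4 with the smallest adjusted p were the exonuclease Xrn2 (-0.24, SE 0.05), the poly(A) polymerase Tent2 (-0.37, SE 0.09), Tsnax, a subunit of the translin complex (0.23, SE 0.06), and the exosome nuclease Dis3 (-0.24, SE 0.07).

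Of 18 partners and reported targets of the Lin28 and let-7 axis, 9 were lower and 1 higher (median -0.20). The change in Msi2, an RNA-binding protein, exceeded that of any of the 10 genes above. Msi2 went from 109 ± 8.37 to 45.7 ± 2.43 CPM (log2 -1.25, SE 0.07, edgeR adjusted p = 1.02e-07). The 3 let-7 targets Igf2bp3 (-0.46, SE 0.05), Igf2bp2 (-0.42, SE 0.06) and Igf2bp1 (-0.36, SE 0.05) were lower too. Hmga2, the reference let-7 target, was at 14 ± 2.37 CPM in controls and 11.8 ± 1.43 CPM with cisplatin and did not pass (adjusted p = 0.234). In RNAome sequencing 0 genes of the 6 groups were called in either direction.

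**Figure D3:**
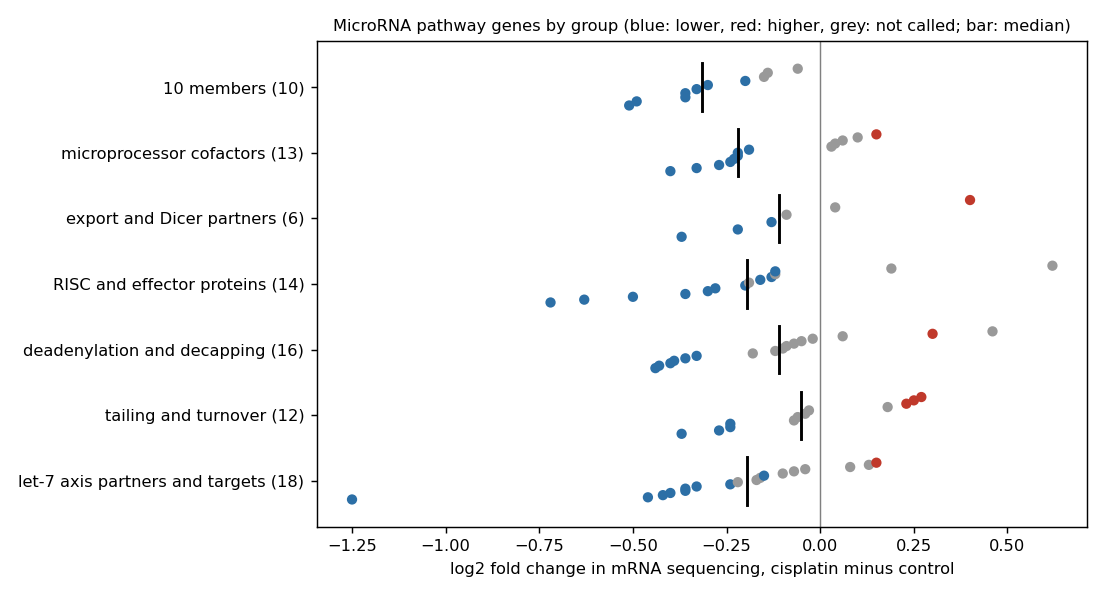
Log2 fold change (cisplatin minus control) in mRNA sequencing for the 10 genes and 6 further groups, group sizes in brackets. Each point is a gene, blue where called lower, red where called higher and grey where not called, and black bars are medians. The medians run from -0.05 (tailing and turnover) to -0.32 (the 10 genes), and the leftmost point is Msi2.

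In RNAome sequencing of the same 6 samples none of the 9 genes tested was called (edgeR), and DESeq2 called 0 as well. Dis3l2, with 53 counts over the 6 libraries, did not pass the filter on low counts. Over all 9978 genes tested, 1.07% were called lower and 0.972% higher. Ago2, Drosha and Ago1 had an unadjusted edgeR p under 0.05, as had 13.8% of all genes tested, and their adjusted p ran from 0.295 to 0.329. The cisplatin libraries lay wholly below the controls in 3 genes, Drosha, Ago2 and Lin28a, against 9.14% of all genes tested.

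The values of Drosha show how much rested on a single library. Drosha was at 10, 8.67 and 10.1 CPM with cisplatin and at 21.7, 10.2 and 10.7 CPM in controls, so that control 8.4.16 alone was high. Its log2 difference was -0.52 (SE 0.23), and -0.13 without that library. Ago1 was at 2.21, 1.99 and 2.82 CPM against 5.48, 2.51 and 3.3 CPM, again with control 8.4.16 highest (-0.63, SE 0.28, and -0.34 without it). Ago2 was at 6.06, 5.39 and 6.27 CPM against 11.2, 6.52 and 7.56 CPM (-0.47, SE 0.20, and -0.26 without it). Zcchc11 went from 0.02 (SE 0.22) to 0.30 without it, Dgcr8 from -0.11 (SE 0.19) to 0.05 and Dicer1 from -0.05 (SE 0.17) to 0.11.

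Lin28a differed little with and without that library. It was at 27, 27.1 and 21.9 CPM with cisplatin and at 30.4, 27.2 and 33.1 CPM without, the groups being barely separate. The log2 difference was -0.25 (SE 0.16), and -0.24 without control 8.4.16, and it did not pass (adjusted p = 0.549). Lin28b, at 3.45 to 4.25 CPM against 3.02 to 5.22 CPM (-0.18, SE 0.23), and Xpo5, at 15.5 to 21 CPM against 16.1 to 17.2 CPM (0.18, SE 0.16), overlapped between the groups. Lin28b went to -0.32 without control 8.4.16 and to 0.03 without control 8.5.16.

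Whether the cisplatin effect differed between the assays was tested as an interaction over the 12 libraries of both. None of the 10 genes was called, and of 13070 genes 0% were called (edgeR), with 770 at an unadjusted p under 0.05 and 0 of the 10 genes among them. For Lin28a the effect in RNAome minus that in mRNA sequencing was 0.27 on the log2 scale (95% interval -0.05 to 0.60), for Drosha -0.12 (-0.56 to 0.32) and for Ago2 0.05 (-0.33 to 0.43). For Dicer1 it was 0.28 (-0.03 to 0.60), for Xpo5 0.26 (-0.05 to 0.57) and for Ago1 -0.46 (-0.95 to 0.03). Zcchc11 (0.20, -0.19 to 0.59), Lin28b (0.14, -0.30 to 0.57) and Dgcr8 (0.11, -0.21 to 0.44) lay above 0. The interval was widest for Dis3l2 (-0.58, -1.48 to 0.32). Single libraries moved several of these values. Without control 8.4.16 Drosha turned to 0.23, Ago2 went to 0.18, Ago1 to -0.22, Zcchc11 to 0.40, Dgcr8 to 0.23 and Lin28b to 0.03. Without control 8.5.16 Ago2 turned to -0.14 and Zcchc11 to -0.01, Drosha went to -0.32, Ago1 to -0.72, Dis3l2 to -0.95, Dicer1 to 0.16, Dgcr8 to 0.00 and Lin28b to 0.30. Without control 8.6.16 Dis3l2 went to -0.09, Drosha to -0.24 and Ago2 to 0.13. All 10 intervals include 0, and a p that misses the threshold does not show that the assays act alike.

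Counts in introns gave another readout, since RNAome sequencing also reads unspliced RNA. Deposited regions lying inside an intron of 1 gene were summed per gene, and 4331 genes passed the filter. Of these, 0.439% were called lower and 0.693% higher, and 0 of the 8 genes tested were called (edgeR). At an unadjusted p under 0.05 there were 2, Ago2 and Dicer1, beside 13.1% of all genes tested. Ago2 introns were at 10.1, 13.1 and 10.1 CPM with cisplatin against 26.2, 15.8 and 14.7 CPM (log2 -0.68, SE 0.26, edgeR adjusted p = 0.239), and -0.45 without control 8.4.16. Dicer1 introns were at 5.93, 3.91 and 7.69 CPM against 9.7, 6.85 and 12.1 CPM (-0.75, SE 0.34, edgeR adjusted p = 0.33). The cisplatin libraries lay wholly below the controls in 3 of the 8 genes, Ago2, Lin28a and Dis3l2, against 9.1% of all genes tested, and overlapped with them in Dicer1. The place of control 8.4.16 depends on its TMM factor for introns, 0.4293 against 0.9244 to 1.432 in the other libraries, which raises its CPM. Unscaled, it had 10 Lin28a counts against 11 to 20 in cisplatin libraries, and 15 Dis3l2 counts against 25 to 45.

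Intron values of the other genes were spread about 0. Dis3l2 (-0.45, SE 0.25), Lin28a (-0.44, SE 0.33) and Drosha (-0.28, SE 0.22) were below 0, and Dgcr8 (0.20, SE 0.36), Xpo5 (0.12, SE 0.24) and Zcchc11 (0.09, SE 0.27) above. The sign turned without a single library for Drosha (0.02 without control 8.5.16), Dgcr8 (-0.01 without cisplatin 8.4.3), Xpo5 (-0.11 without control 8.5.16) and Zcchc11 (-0.09 without control 8.6.16). These rest on few counts, 89 for Dicer1 and 84 for Lin28a over the 6 libraries. A single region held 63.2% of the 862 intron counts of Drosha. Ago1 and Lin28b had 21 and 11 counts and were not tested.

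**Figure D4:**
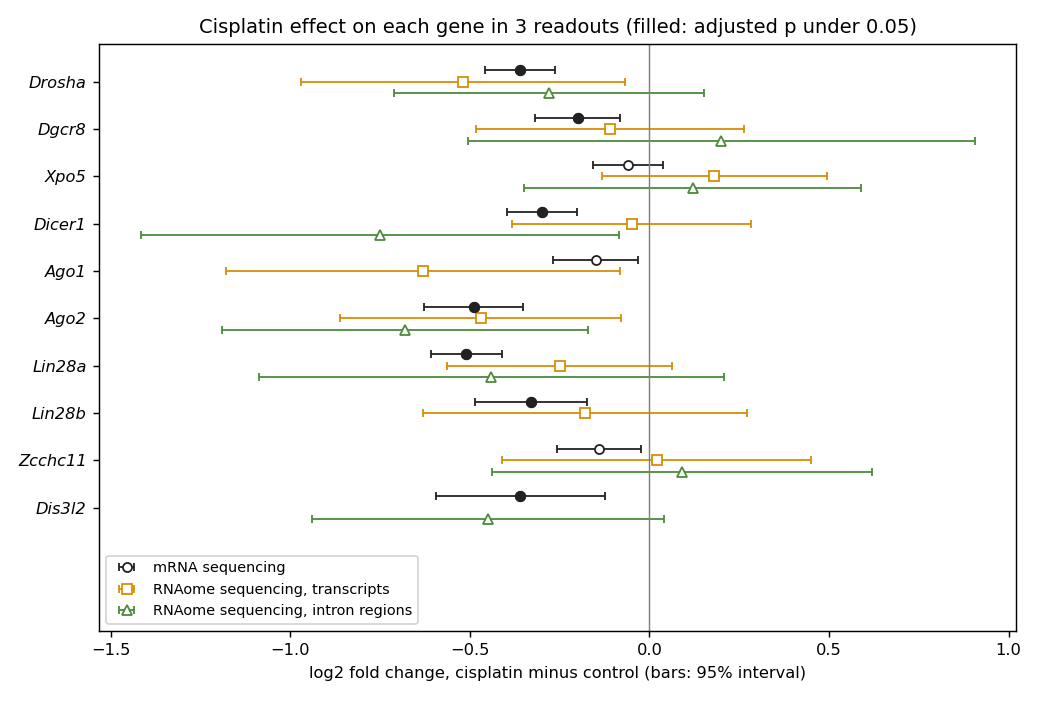
Log2 fold change (cisplatin minus control) of each gene in mRNA sequencing (black circles), in transcripts of RNAome sequencing (orange squares) and in intron regions of RNAome sequencing (green triangles). Bars are 95% intervals from the SE, and filled symbols passed an adjusted p of 0.05. The 7 filled symbols are all mRNA values, and the RNAome bars are wider.

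The 10 genes were read to different extents by the 2 assays. In a fit of the 12 libraries with treatment as covariate, where scaling is relative to the bulk of genes, 5 genes were lower in RNAome than in mRNA sequencing, 1 was higher and 4 did not pass (edgeR). Over 13070 genes, 34.4% were lower and 32.3% higher, so such differences are common. Ago1 was lowest relative to mRNA sequencing (log2 -1.82, SE 0.12, adjusted p = 5.38e-13), followed by Dis3l2 (-1.31, SE 0.21), Lin28a (-0.90, SE 0.09), Ago2 (-0.79, SE 0.09) and Drosha (-0.79, SE 0.11). Xpo5 was higher (0.40, SE 0.08, adjusted p = 0.000147). Dgcr8 (0.07, SE 0.08), Dicer1 (-0.13, SE 0.08), Zcchc11 (-0.14, SE 0.10) and Lin28b (0.23, SE 0.11) did not pass.

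Mature let-7, the product that Lin28 holds down, was scarce in both treatments. CPM in this paragraph is taken over unscaled microRNA totals, without TMM factors. In small RNA sequencing the 5p arms of the family summed to 676, 1147 and 1014 CPM of microRNA counts with cisplatin and to 1168, 813 and 871 in controls. The groups overlapped and their means, 945 ± 243 and 951 ± 191 (SD, n = 3), were close. The miR-290 cluster, the main microRNA cluster of ES cells, took 245976 to 271435 CPM in the same cisplatin libraries and 273080 to 290921 CPM in the controls, without overlap. In RNAome sequencing the let-7 family summed to 718 ± 142 with cisplatin and 681 ± 206 in controls, again with overlap. There, unscaled, the miR-290 cluster lay the other way round, at 142446 to 175378 CPM with cisplatin and 119107 to 136568 CPM in controls. That separation depends on the scaling. The TMM factors of these libraries were 1.008 to 1.121 with cisplatin and 0.7911 to 1.045 in controls. After division by these factors the groups overlap. The summed shares were not tested.

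No let-7 microRNA was called under the deposited names. Of 543 names tested in small RNA sequencing, 0.737% were lower and 5.34% higher, and 0 of the 12 let-7 and miR-98 names, both arms counted, were called by edgeR or DESeq2, with 2 at an unadjusted p under 0.05. These were the names let-7a-5p, which holds the let-7c sequence (log2 0.39, SE 0.12, adjusted p = 0.0941), and let-7d-3p (0.47, SE 0.18, adjusted p = 0.211). The share of all microRNA names at an unadjusted p under 0.05 is not given here for either assay, so such counts have no background. Of 320 names in RNAome sequencing 1.56% were lower and 1.56% higher, and 0 of 5 family names were called by either tool, with 1 at an unadjusted p under 0.05. That was miR-98-5p, at 7.27, 13.6 and 6.22 CPM with cisplatin and 23.7, 17.6 and 19.6 CPM in controls (log2 -1.17, SE 0.44, adjusted p = 0.174). In small RNA sequencing miR-98-5p overlapped between groups (-0.15, SE 0.23), and by sequence its RNAome values rest on 66 counts. The other names tested in RNAome sequencing overlapped, let-7f-5p at -0.18 (SE 0.30), let-7i-5p at -0.45 (SE 0.38), let-7a-5p at 0.22 (SE 0.34) and let-7e-5p at -0.02 (SE 0.29).

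By sequence, let-7f-5p led the family, and of the 5p arms let-7c-5p had separate groups in small RNA sequencing. Let-7c-5p was at 203, 235 and 228 CPM with cisplatin and at 181, 164 and 167 CPM in controls (log2 0.38, SE 0.11), and did not pass (edgeR adjusted p = 0.086). In RNAome sequencing it overlapped, at 228, 187 and 121 CPM against 199, 138 and 103 CPM (0.28, SE 0.34, adjusted p = 0.734). Let-7f-5p, at 278, 395 and 373 CPM against 464, 332 and 353 CPM, overlapped in small RNA sequencing (-0.14, SE 0.17). Let-7i-5p ranged from 71.6 to 204 CPM with cisplatin and from 129 to 218 CPM in controls (-0.16, SE 0.36). Let-7a-5p (-0.13, SE 0.22), let-7e-5p (-0.22, SE 0.18), let-7d-5p (-0.20, SE 0.22), let-7g-5p (-0.10, SE 0.16), miR-98-5p (-0.18, SE 0.23) and let-7b-5p (0.05, SE 0.44) overlapped as well. Let-7b-5p had 99 counts over the 6 libraries, near the lowest value of 5 that a microRNA entry of that table holds. Of the 3p arms, let-7d-3p had separate groups, at 19.1, 21.1 and 18.7 CPM with cisplatin against 17.6, 13.3 and 12.1 CPM (0.45, SE 0.18, adjusted p = 0.228). The 3p arm shared by let-7a-1 and let-7c-2 (-0.06, SE 0.32) and miR-98-3p (-0.11, SE 0.23) overlapped, at group means from 4.21 to 5.44 CPM.

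**Figure D5:**
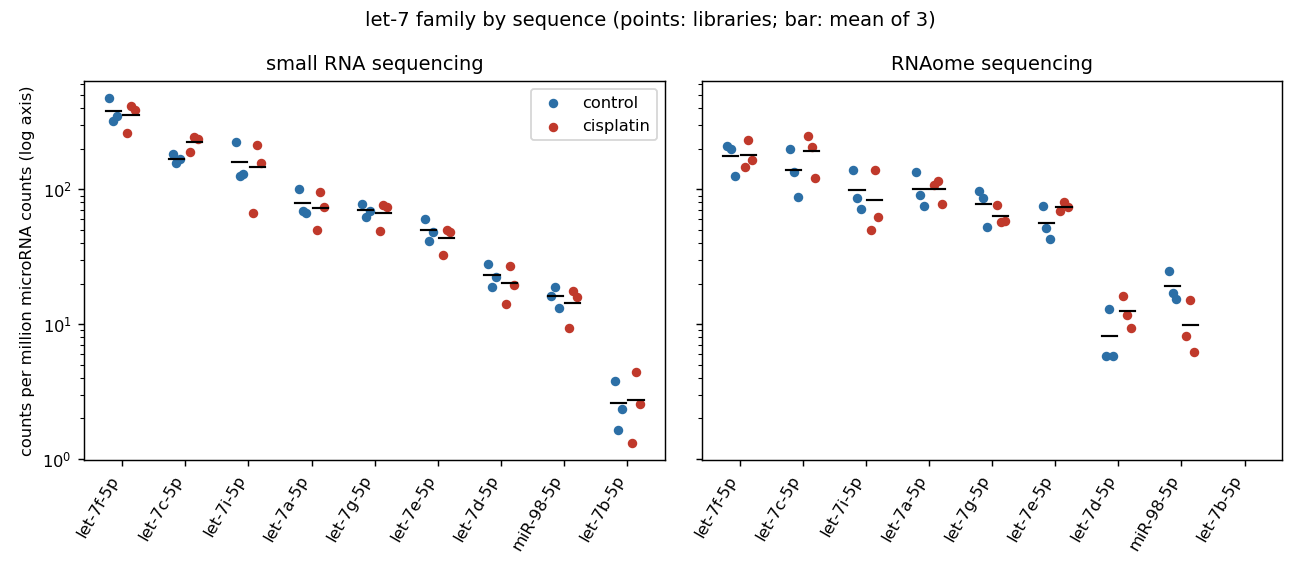
CPM of microRNA counts (log axis) of the let-7 family, assigned by sequence, in small RNA sequencing (left) and RNAome sequencing (right). Totals are unscaled here, so the points differ somewhat from the TMM-scaled CPM in the text. Points are libraries and bars means of 3. In small RNA sequencing let-7c-5p is the member whose cisplatin points all lie above the controls, and let-7b-5p has no entry in the RNAome panel.

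The 3′ ends of let-7i differed from those of its relatives. In small RNA sequencing 78.6% of let-7i counts lacked the last base of the RefSeq mature sequence, against 8.96% for let-7f and 4.06% for let-7c. The full sequence with an added A made up 17.5% of let-7i, 8.08% of let-7f and 2.49% of let-7c counts. In 0 of the 12 hairpins is the base after the mature sequence an a, so the hairpin does not encode that A. With cisplatin the added A took 15.6% ± 2.29 (SD, n = 3) of let-7i counts and without it 18% ± 1.03, and the groups, at 13.3% to 17.9% and 16.8% to 18.8%, overlapped. For let-7e the A-tailed share was 2.86%, 1.48% and 3.76% with cisplatin and 7.25%, 9.27% and 4.91% in controls, without overlap. All 3 cisplatin values of that sequence are the lowest listed count of 5, against 37, 14 and 17 in controls, so its share with cisplatin is not resolved, and the difference in shares was not tested. RNAome sequencing gave 82.5% and 13.1% for the shortened and the A-tailed let-7i. Added U was not assessed, since some deposited sequences run on into adapter that starts with that base.

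MicroRNAs reported to act on these genes were not called in either assay. Of 17 names of the miR-9, miR-30 and miR-125 families, reported regulators of Lin28 mRNAs, 0 were called in small RNA sequencing by either tool, with 1 at an unadjusted p under 0.05. The leading 3 were miR-30d-5p (log2 0.08, SE 0.07), miR-30a-5p (-0.08, SE 0.09) and miR-30c-5p (-0.09, SE 0.08). The miR-103 and miR-107 names, reported regulators of Dicer1, were at 0.08 (SE 0.09) and 0.05 (SE 0.08), and the miR-103-3p sequence is deposited as miR-107-3p. From the miR-290 cluster 2 of 14 names were called higher in small RNA sequencing, beside 5.34% of all 543 names tested. They were miR-290-5p (0.50, SE 0.11, edgeR adjusted p = 0.0384) and miR-295-5p (0.57, SE 0.10, edgeR adjusted p = 0.0132). The 3 most abundant names of the cluster were not called. In RNAome sequencing 0 of 13 were called, miR-290-5p at 0.28 (SE 0.30) and miR-295-5p at 0.18 (SE 0.28). Of the 16 Lin28 regulators tested there, 0 were called by either tool, and 2 had an unadjusted edgeR p under 0.05. These went opposite ways, miR-125a-5p at 0.75 (SE 0.29) and miR-30b-3p at -1.25 (SE 0.44). The miR-103 and miR-107 names were at 0.01 (SE 0.27) and 0.24 (SE 0.26) there.

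Dgcr8 was the gene among the 10 that left fragments in small RNA sequencing. That table lists 292 fragment entries of RefSeq mRNAs, and Dgcr8 is the only entry from these genes. Its fragments counted 103, 120 and 63 with cisplatin and 201, 77 and 139 in controls, with overlap, and their total of 703 ranked 47 of the 292, whose median total was 90.5. In RNAome sequencing, where 3640 mRNAs are listed, Dgcr8 again led these genes with 58 counts, against 17 for Ago2 and 6 each for Lin28a and Xpo5. Its mRNA, at 20.1 CPM per kb in controls, was below those of Lin28a, Drosha and Xpo5. Mature miR-1306-3p, encoded within Dgcr8 (mature sequence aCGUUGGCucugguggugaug, seed in capitals) stood at 5 counts in each cisplatin library, the lowest value that table lists, and at 13, 7 and 13 counts in the controls. Its difference between groups cannot be sized from floor values, and it was not called (edgeR adjusted p = 0.405). The deposited tables do not give the position of the Dgcr8 fragments within the mRNA.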

How the data were processed

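All values were read counts that the authors deposited without normalization, per RefSeq transcript or genomic region (long RNA) and per sequence (small RNA). Per the submitters' processing notes, Bowtie, TopHat and edgeR and build mm9 were used, while the sources used here give neither the counting rule nor the filters. Of 18943 and 17787 RefSeq entries in the mRNA and RNAome expression tables, 18274 and 17133 were matched to symbols, and 1 entry per gene was kept, one present in both tables first, then the highest mean CPM. MicroRNA counts were summed per deposited name. Tests used edgeR 4.0.16 in R 4.3.3 (quasi-likelihood test with TMM factors and its default filter on low counts within groups; two-sided, with Benjamini-Hochberg adjustment over all features of a table), and DESeq2 1.42.0 as an alternative. CPM uses TMM-scaled totals, SE is the size of the log2 fold change over the root of the F statistic, and SDs are over 3 libraries. CPM per kb uses the longest coding GENCODE vM1 transcript. 95% intervals use the normal quantile of the SE. The scripts recovered known changes on simulated data.

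The labels do not say whether the 3 samples of a group were grown separately. The p-values therefore reflect only how these samples varied, possibly for technical reasons. In small RNA sequencing the treatment groups used the same 3 indexes, and the sources used here do not say which were pooled. Sample codes in the titles pair the mRNA and RNAome libraries of a sample. Deviations from group means correlated at 0.039 to 0.17 within a code over 13070 genes, each code correlating best with itself. The 10 genes and the lists were chosen with earlier results of these data known. All 10 genes are named in every comparison, of each pathway list up to 4 genes with the smallest adjusted p in mRNA sequencing, of microRNA lists all let-7 and miR-98 entries tested and up to 3 by mean level, and others only where said or where a count or contrast turned on them. One gene that this rule names is not reported here. Alternatives were other scaling, no filter, DESeq2, all entries, other choices of entry, the abundance tables, leaving out each library, and the sample code as block.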

Additional observations from a re-analysis of the deposited data

How the results depend on the processing

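The count of 7 genes lower in mRNA sequencing was 5 to 9 when single libraries were left out, with 0 higher in each such fit, and 7 or 8 under other scaling, no filter, DESeq2, all entries and regions, the highest entry within the table and the abundance table. The eighth gene was Ago1, called under RLE scaling (adjusted p = 0.0431), without a filter (0.0366) and in the abundance table (0.045). Ago1 and Zcchc11 were called without control 8.6.16, Dgcr8 and Dis3l2 were lost without the libraries named with them above, and Lin28a, Ago2, Drosha, Dicer1 and Lin28b passed in every fit, Lin28b with an adjusted p up to 0.0471. In RNAome sequencing, introns and the let-7 names 0 members were called under every alternative run. With the sample code as a replicate block, 0 of the 10 genes differed in their cisplatin effect between assays, 5 were lower and 1 higher in level in RNAome sequencing, and of all 13070 genes 13 had a lower effect in RNAome sequencing, against 0 without the block. Leaving out control 8.4.16 gave 30 lower and 2 higher genes there, 0 of them among the 10. Counts over all features moved by over 1.5 times as follows. For mRNA, all entries and regions gave 4619 higher and 4588 lower. For RNAome, DESeq2 gave 57 higher against 97, all entries and regions gave 170, and fits without 1 library gave down to 40 higher and 38 lower. For small RNA, fits without 1 library gave 7 to 17 higher against 29, apart from that without control 8.5.16, which gave 27, and 0 to 5 lower against 4, and naming by sequence, chosen after seeing the data, gave 18 higher. For microRNAs of RNAome sequencing, DESeq2 gave 11 higher and 8 lower against 5 and 5, no filter gave 11 higher, naming by sequence gave 1 lower, and fits without 1 library gave 0 to 12 higher and 0 to 8 lower. For introns, no filter gave 62 higher and 30 lower against 30 and 19, and fits without 1 library gave down to 6 higher and 5 lower. RNAome sequencing had 16 to 81 counts per library for Lin28b, and its SE there was 0.23, against 0.08 in mRNA sequencing. The part of depth in that SE was not tested.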

Other observations

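The mismatch between deposited microRNA names and sequences was not limited to let-7. Of 403 entries of the small RNA sequencing table whose sequence equals a RefSeq mature microRNA, 32 stood under another name, as did 28 of 325 in RNAome sequencing, and some of these differ only by a later renaming. MicroRNA entries of the small RNA sequencing table hold no value under 5, and 19.3% of their values equal it. In RNAome sequencing the lowest value is 1, with 34.5% of values at it.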
